A study of Mus musculus with 7 samples.

Results

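The 9 genes described here, Wt1, Msln, Upk3b, Upk1b, Lrrn4, Muc16, Gpm6a, Rspo1 and Krt14, mark the mesothelium, the epithelial sheet that covers the pancreas and the other organs of the body cavity. They were taken by symbol from a deposited table of 27138 features counted in E15.5 mouse embryonic pancreas, and all 9 were found and passed the filter on low counts. The cKO group comprised 3 libraries from embryos with Pdx1Cre and floxed alleles (mLINC00673 fl/fl) of 2610035D17Rik, the mouse counterpart of LINC00673, a human gene for a long non-coding RNA. The WT group comprised 4 libraries from embryos with the same floxed alleles and no Cre, so an effect of the deletion cannot be told apart from one of the Cre itself. Each library came from an independent animal. Pdx1-Cre acts in the pancreatic epithelium, and the mesothelium is not among the cells that this driver is known to mark.

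The mesothelium arises from the mesoderm as a squamous epithelium that keeps keratins and apical glycoproteins. Wt1 encodes a zinc finger transcription factor that marks this layer in the embryo, and lineage tracing in mice has shown that Wt1-positive mesothelium gives rise to fibroblasts and stellate or smooth muscle cells of internal organs. Its surface carries mesothelin (Msln), a lipid-anchored glycoprotein, and the mucin Muc16, known in human cells to bind mesothelin.

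Promoter windows are shown for 4 of the genes, Upk3b and Krt14, whose levels moved together over the libraries, and Lrrn4 and Muc16, which peaked in another library. RefSeq sequences of 250 bases before and 50 after the gene start on GRCm38.p6 were at hand for 6 of the 9 genes (7 windows, of which Gpm6a had 2). Capitals mark GGAATG on either strand, the core letters of the TEAD motif, which reads as its reverse complement in Upk3b.
Upk3b, chr5:136038246-136038545, plus strand: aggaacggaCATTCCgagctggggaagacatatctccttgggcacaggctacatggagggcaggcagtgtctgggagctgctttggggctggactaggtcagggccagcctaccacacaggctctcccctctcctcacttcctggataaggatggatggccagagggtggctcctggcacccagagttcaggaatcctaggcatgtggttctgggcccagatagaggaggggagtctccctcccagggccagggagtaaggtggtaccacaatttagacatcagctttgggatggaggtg
Krt14, chr11:100205981-100206280, minus strand: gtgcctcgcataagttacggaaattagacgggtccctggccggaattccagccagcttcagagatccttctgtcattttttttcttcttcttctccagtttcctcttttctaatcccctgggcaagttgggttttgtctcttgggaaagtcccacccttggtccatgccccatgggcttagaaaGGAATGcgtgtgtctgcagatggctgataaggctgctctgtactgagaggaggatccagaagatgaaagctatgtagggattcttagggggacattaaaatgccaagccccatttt
Lrrn4, chr2:132880813-132881112, minus strand: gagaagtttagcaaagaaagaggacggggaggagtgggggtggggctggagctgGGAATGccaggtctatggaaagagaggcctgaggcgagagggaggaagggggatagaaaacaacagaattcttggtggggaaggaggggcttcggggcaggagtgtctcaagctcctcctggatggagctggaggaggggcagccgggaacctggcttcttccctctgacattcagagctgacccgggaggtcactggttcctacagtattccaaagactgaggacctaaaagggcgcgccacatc
Muc16, chr9:18674554-18674853, minus strand: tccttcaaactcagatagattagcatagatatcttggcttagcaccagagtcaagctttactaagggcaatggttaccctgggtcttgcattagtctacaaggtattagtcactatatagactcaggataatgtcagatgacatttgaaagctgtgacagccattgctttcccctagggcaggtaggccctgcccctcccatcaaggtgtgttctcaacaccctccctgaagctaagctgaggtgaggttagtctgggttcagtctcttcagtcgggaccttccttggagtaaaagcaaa

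These letters lay at -241 in Upk3b, -66 in Krt14, -196 in Lrrn4 and, in a window not shown, at -125 in Gpm6a, counted from the gene start. They were absent from the windows of Muc16 and Rspo1 and from the other Gpm6a window. GGAATG on either strand was found in 14.7% of all 32851 promoter windows of this length. The letters GCGNGGGCG, shared by the Wt1 and Egr zinc finger motifs, were in none of the 7 windows and in 5.55% of all windows, and the letters AGATAA, known to be bound by Gata4 and related factors, were in none and in 11.2%. Other letters that Gata4 and related factors can bind were not searched for. The TATA box letters TATAAA were found in 1 of the 7 windows, that of Gpm6a at -211, and in 13.6% of all windows. The GC box letters GGGCGG were also found in 1, at +38 in the other Gpm6a window, and in 35.7% of all windows. Both strands were searched and overlaps between motifs were allowed. The presence of letters is a description of the windows and not of binding.

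The libraries held 14883918 to 17767373 counts. The deleted gene 2610035D17Rik was at 2.01, 3.38 and 2.27 CPM (counts scaled to a common library size with TMM factors) in cKO replicates 1 to 3, against 9.08, 8.76, 7.93 and 8.83 CPM in WT replicates 1 to 4. It was lower in every cKO library (log2 fold change -1.76). Adjusted over all features, its p was 1.25e-09 in DESeq2, past the threshold of 0.05, and 0.0902 in edgeR and 0.133 in limma-voom, short of it. Genes of the pancreatic epithelium summed to 6524 to 8107 CPM in cKO libraries and 6735 to 11356 CPM in WT libraries, with all 8 detected, including Pdx1 and Cpa1. The 7 liver genes listed stood apart in 2 libraries, with summed levels of 1557 CPM in cKO replicate 1 and 913 CPM in WT replicate 4 and 66.2 to 129 CPM in the other 5. The 10 neuron genes spanned 133 to 1343 CPM in cKO and 113 to 988 CPM in WT. Steroidogenic genes stood apart in WT replicate 3, where Cyp11a1, which starts steroid synthesis, was at 46.6 CPM and was at 2.10 to 5.94 CPM elsewhere. In the table header the column of WT replicate 4 carries the number 7 in its group name and the other columns the number 6, and no source used here says what it marks.

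The 9 genes lie on 8 chromosomes of the mouse, with Wt1 (ENSMUSG00000016458) and Lrrn4 (ENSMUSG00000043110) on chromosome 2, Rspo1 (ENSMUSG00000028871) on 4, Upk3b (ENSMUSG00000042985) on 5, Gpm6a (ENSMUSG00000031517) on 8 and Muc16 (ENSMUSG00000109564) on 9. Krt14 (ENSMUSG00000045545) is on chromosome 11, Upk1b (ENSMUSG00000049436) on 16 and Msln (ENSMUSG00000063011) on 17. All 9 genes were detected in every library, with 19 to 1711 counts each, and together took 0.0143% to 0.0219% of the counts. Levels can be set side by side only per length, here as CPM per kilobase of annotated exon in the GENCODE M21 annotation. Upk3b, a uroplakin and the most abundant, averaged 20.3 ± 5.21 CPM per kilobase (SD, n = 7), which exceeded 83.6% of the tested genes. Lrrn4, a leucine-rich repeat membrane protein, followed with 7.97 ± 1.42, and Upk1b, a tetraspanin uroplakin, with 5.39 ± 1.14 CPM per kilobase. Gpm6a, Rspo1 and Wt1 lay close together at 4.74 ± 0.937, 4.67 ± 1.08 and 4.47 ± 0.728 CPM per kilobase. Krt14 (2.26 ± 1.24) and Msln (2.08 ± 0.989) came next. Muc16, whose annotated exons cover 26350 bases, was the lowest at 0.340 ± 0.181 CPM per kilobase.

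Of the 8 neighbouring pairs in this order, 3 differed in all 7 libraries, namely Upk3b over Lrrn4, Wt1 over Krt14 and Msln over Muc16 (exact sign-flip test of the log2 ratio over libraries, p = 0.0156 each, the smallest 7 libraries allow, and 0.0417 after Benjamini-Hochberg adjustment over 8 pairs). Lrrn4 exceeded Upk1b in 6 of 7 libraries and Upk1b exceeded Gpm6a in 6 of 7 (exact p = 0.0312 and 0.0469, adjusted p = 0.0625 and 0.075). Gpm6a and Rspo1 did not differ beyond the spread between libraries, nor did Rspo1 and Wt1, with the first of each pair higher in 4 of 7 libraries (adjusted exact p = 0.768 for both). Krt14 was above Msln in 5 of 7 libraries (adjusted exact p = 0.906). The order was set by the means of these same 7 libraries, so the pairs tested were not fixed in advance. The test covers the spread between libraries only. An error in an annotated exon length would move a ratio alike in all 7 libraries.

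The transcription factor Wt1 had 27.8, 20.6 and 33.5 CPM in cKO replicates 1 to 3, against 25.7, 24.6, 32.3 and 29.5 CPM in WT replicates 1 to 4. The cKO libraries enclosed the whole WT range. The fitted log2 fold change of cKO over WT was -0.035 (SE 0.168, 95% interval -0.42 to 0.35), a fold of 0.976 with an interval of 0.749 to 1.27. Leaving out WT replicate 3 gave 0.040, and leaving out cKO replicate 2 gave 0.13. Wt1 had the narrowest spread of the 9, with a coefficient of variation (CV) over the 7 libraries of 16.3%, where counting error alone gives 4.61%.

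Among the surface proteins, mesothelin gave 9.87, 6.75 and 5.53 CPM in cKO replicates 1 to 3 and 5.46, 1.79, 4.69 and 10.5 CPM in WT replicates 1 to 4. The lowest cKO library lay above 3 of the 4 WT libraries, but WT replicate 4 was the highest of all, so the groups overlapped. The log2 fold change of Msln was 0.40 (SE 0.512, 95% interval -0.79 to 1.59). Leaving out WT replicate 4 gave 0.88, WT replicate 2 gave 0.10 and cKO replicate 1 gave 0.14. Muc16 had 6.32, 4.97 and 17.9 CPM in cKO libraries and 4.11, 11.9, 9.61 and 7.84 CPM in WT libraries. A single library, cKO replicate 3, lay above the WT range, and the other 2 cKO libraries lay in its lower part. Its log2 fold change was 0.22 (SE 0.520, 95% interval -0.9998 to 1.45) with all libraries, -0.56 without cKO replicate 3 and -0.0050 without WT replicate 1.

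Uroplakins were named for the plaques of bladder urothelium, and Upk3b and Upk1b are also established mesothelial markers. Upk3b had 101, 53.9 and 76.8 CPM in cKO replicates 1 to 3, against 60.3, 49.4, 76.1 and 84.9 CPM in WT replicates 1 to 4. Upk1b had 15.7, 8.88 and 11.4 CPM in cKO replicates and 10.5, 8.65, 11.5 and 12.2 CPM in WT replicates. Both genes ranked the libraries almost alike, with cKO replicate 1 highest, WT replicate 4 next and WT replicate 2 lowest. The log2 fold changes were 0.19 for Upk3b (SE 0.249, 95% interval -0.39 to 0.77) and 0.16 for Upk1b (SE 0.207, 95% interval -0.30 to 0.63). Without cKO replicate 1 they were -0.042 and -0.071. Of the other uroplakins, Upk1a, the tetraspanin most like Upk1b, averaged 4.53 ± 0.250 CPM in cKO (SD, n = 3) and 5.59 ± 1.35 CPM in WT (SD, n = 4), Upk3a 3.46 ± 1.05 and 3.07 ± 1.09 CPM, and Upk2 had 39 counts over all 7 libraries. Upk3bl, a close relative of Upk3b, had 166 counts against 8474 for Upk3b, and no source used here says how reads that match both were assigned.

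Lrrn4 and Gpm6a are membrane proteins also known from neurons. Lrrn4 had 22.9, 27.7 and 37.96 CPM in cKO replicates 1 to 3 and 25.9, 35.4, 28.3 and 28.9 CPM in WT replicates 1 to 4, and the cKO libraries held both its lowest and its highest value. Its log2 fold change was -0.0044 (SE 0.177, 95% interval -0.40 to 0.40), and it was 0.15, 0.037 and 0.093 without cKO replicate 1, cKO replicate 2 and WT replicate 2. Gpm6a had 20.5, 13.6 and 17.7 CPM in cKO libraries, against 13.1, 11.9, 13.9 and 16.0 CPM in WT libraries. In 2 of 3 cKO libraries it was above every WT library, and cKO replicate 2 lay within the WT range. Gpm6a had the smallest unadjusted p of the 9 (edgeR p = 0.0737, exact permutation p = 0.171). Its fitted cKO over WT change was 0.33 on the log2 scale (SE 0.164, 95% interval -0.039 to 0.70). Leaving out cKO replicate 1 gave 0.20, and leaving out cKO replicate 2 gave 0.47 (edgeR, unadjusted p = 0.0147, adjusted p = 1.00). Neuron genes summed to 1343, 133 and 183 CPM in cKO replicates 1 to 3 and to 988, 113, 791 and 432 CPM in WT replicates 1 to 4. Gpm6a had r = 0.40 with the mean z score of the neuron genes (exact permutation p = 0.372, adjusted p = 0.486 over 36 relations; rho = 0.50, exact p = 0.267, adjusted p = 0.417), and -0.44 without WT replicate 2 and cKO replicate 1. Lrrn4 had r = -0.76 with the same score (exact permutation p = 0.0514, adjusted p = 0.172), and -0.53 without the same 2 libraries. The rho of Lrrn4 with it was -0.71 (exact permutation p = 0.0881, adjusted p = 0.211). The part of neurons in the levels of Gpm6a and Lrrn4 was not tested.

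Rspo1, a secreted ligand that strengthens Wnt signalling through Lgr receptors, had 12.8, 6.63 and 10.2 CPM in cKO replicates 1 to 3 and 7.19, 9.003, 7.82 and 9.68 CPM in WT replicates 1 to 4. The cKO libraries spread to both sides of the WT range, and the log2 fold change was 0.23 (SE 0.224, 95% interval -0.28 to 0.74). It was 0.010 when cKO replicate 1 was left out and 0.44 when cKO replicate 2 was. Krt14, a type I keratin of basal epithelia, had 7.21, 1.13 and 4.14 CPM in cKO libraries and 3.67, 1.43, 5.79 and 4.38 CPM in WT libraries, with both its extremes in cKO. Its CV of 55.1% was the widest of the 9, against 12.2% from counting error, and its log2 fold change was 0.12 (SE 0.630, 95% interval -1.34 to 1.59), with -0.52 without cKO replicate 1 and -0.15 without WT replicate 2. Krt5, the keratin with which Krt14 pairs in stratified epithelium, had 6 counts over all 7 libraries, the desmosomal Dsg3 had 5, and Krt14 had 470. Other genes listed for stratified epithelium had 534 (Trp63), 458 (Krt17) and 2405 (Sfn) counts. Which cells the Krt14 counts came from was not tested.

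**Figure D1:**
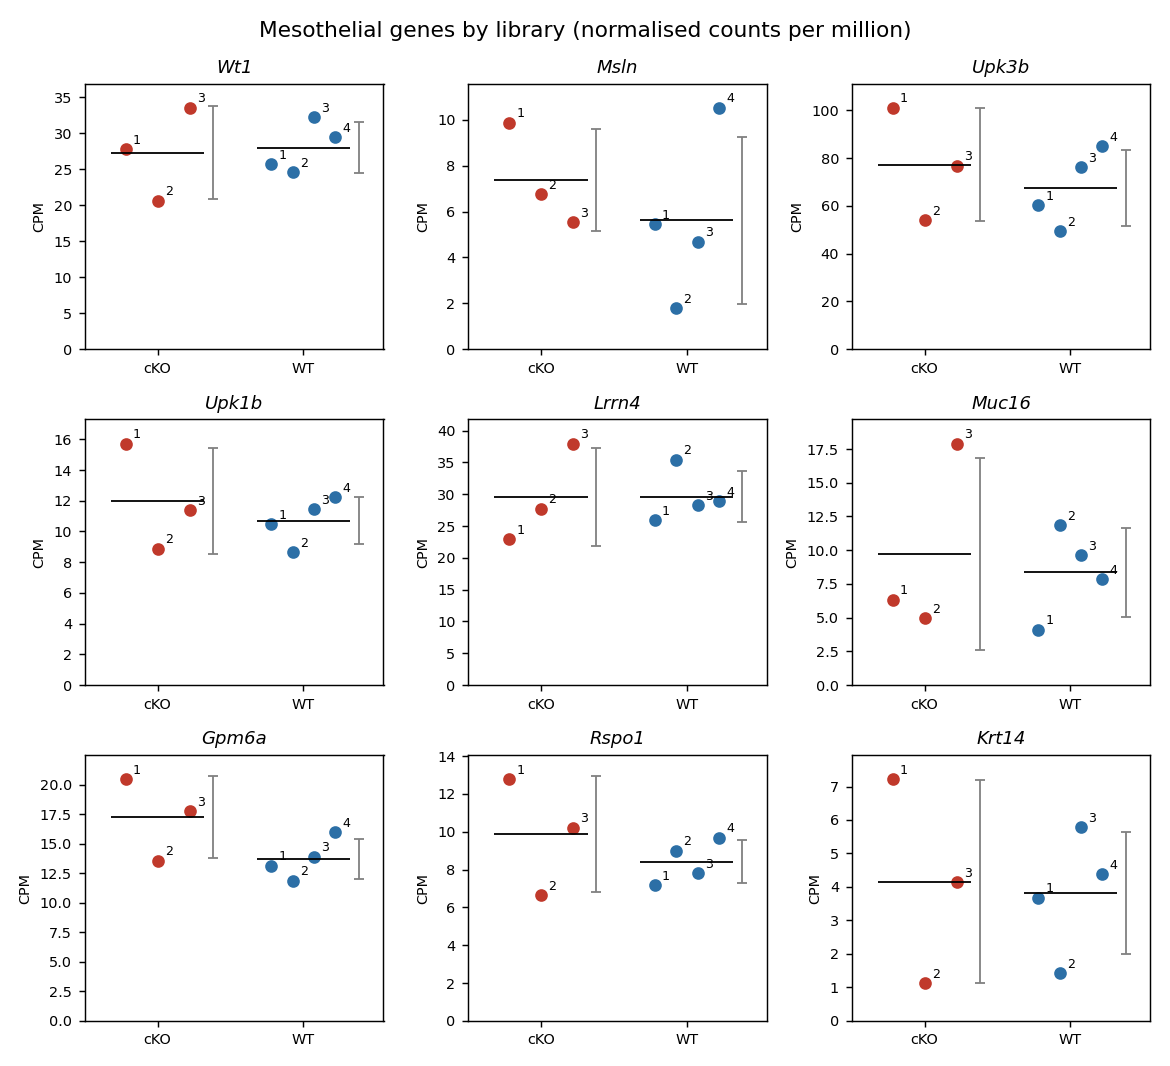
Normalised counts (CPM) of the 9 mesothelial genes in each library, with 3 cKO libraries on the left and 4 WT libraries on the right of each panel, replicate numbers beside the points, black lines at the means and grey bars of 1 SD. The groups overlapped for every gene, and cKO replicate 1 was highest for Upk3b, Upk1b, Gpm6a, Rspo1 and Krt14.

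No gene of the 9 passed the test between cKO and WT. Of the 16910 tested features, 0.00591% (1 feature, no member) passed an adjusted p under 0.05 by edgeR (quasi-likelihood, Benjamini-Hochberg adjusted), and 0 of the 9 genes did, each with an adjusted p of 1.00. At an unadjusted p under 0.05 edgeR listed 0 of the 9 and 1.38% of all tested features (0.668% higher and 0.716% lower in cKO). DESeq2 called 0 of the 9 and 0.0771% of all features, and limma-voom 0 of the 9 and 0.00591%. CPM did not overlap between the groups for 0 of the 9 and for 2.72% of all tested features (1.3% higher and 1.43% lower in cKO). The fitted fold change was above 0 for 7 of the 9 and for 46% of all features, and the median log2 fold change was 0.19 over the 9 and -0.013 over all features. Leaving out cKO replicate 1 gave a median of 0.010 for the 9, leaving out WT replicate 2 gave 0.093 and leaving out cKO replicate 2 gave 0.44. Omitting the pair rich in liver genes gave 0.079. Exact two-sided permutation tests of single genes over the 35 divisions of the libraries gave p between 0.171 for Gpm6a and 0.914 for Lrrn4, where 0.0286 is the smallest possible. The 95% intervals of the fold reached up to 1.27 for Wt1, 1.32 for Lrrn4 and 1.63 for Gpm6a, and up to 3.02 for Msln and 3.01 for Krt14. In bulk tissue, a change in the number of mesothelial cells and a change in RNA per cell cannot be told apart.

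**Figure D2:**
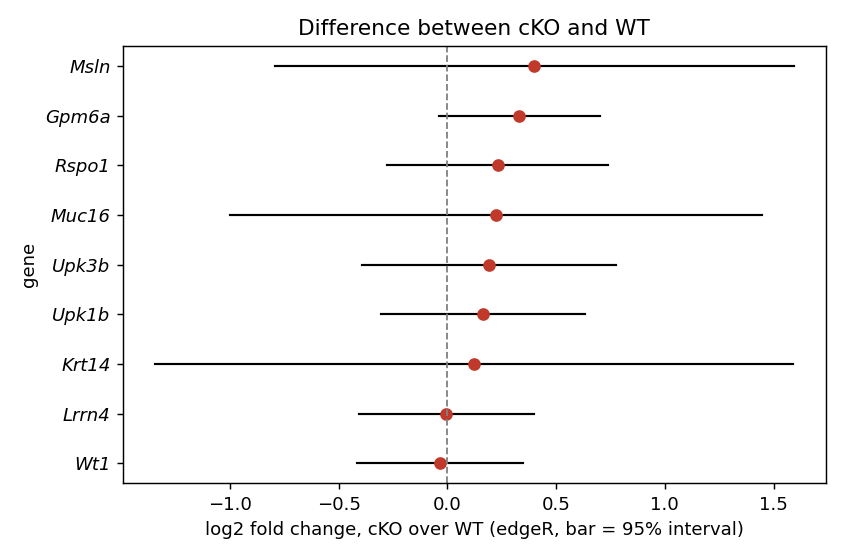
Log2 fold change of cKO over WT for each of the 9 genes from the edgeR fit over all features (points) with 95% intervals (bars). Every interval includes 0, and those of Msln, Muc16 and Krt14 are the widest.

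The 9 genes varied between embryos more than counting error gives, and they did not share 1 pattern. Upk3b, Upk1b, Gpm6a, Rspo1 and Krt14 were all highest in cKO replicate 1. Muc16, Lrrn4 and Wt1 were highest in cKO replicate 3, and Msln in WT replicate 4. At the low end, Upk3b, Upk1b, Gpm6a and Msln were lowest in WT replicate 2, and Wt1, Rspo1 and Krt14 in cKO replicate 2. Muc16 was lowest in WT replicate 1, and Lrrn4 in cKO replicate 1, where the uroplakins peaked.

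**Figure D3:**
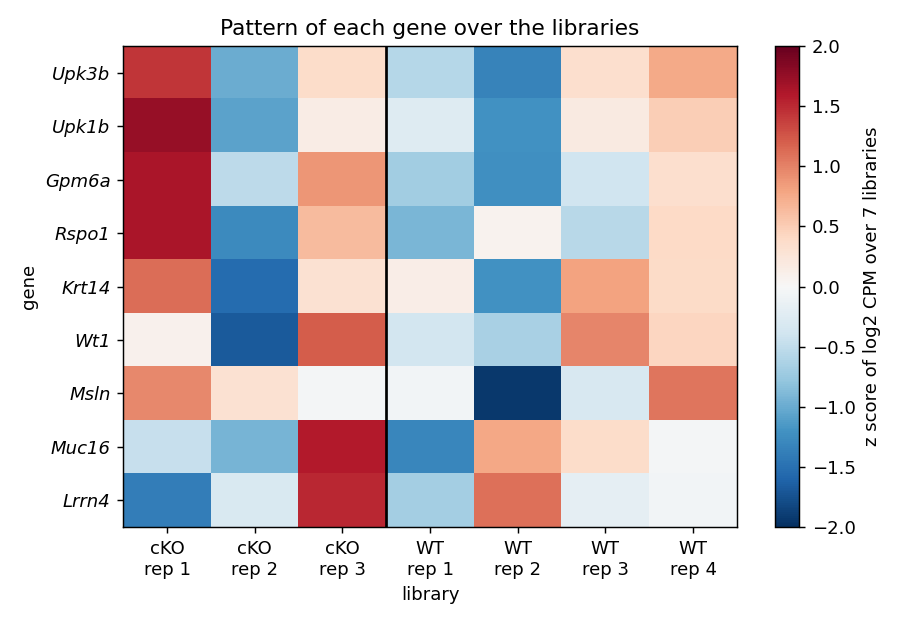
Z scores of log2 CPM over the 7 libraries (red above and blue below each gene's mean) for the 9 genes, with cKO libraries left of the black line and WT libraries right of it. The upper 5 genes peak in cKO replicate 1, whereas Muc16 and Lrrn4 peak in cKO replicate 3.

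Over the 36 pairs of the 9 genes, 28 had a positive Pearson r of log2 CPM, with a median of 0.54. Over all pairs of tested features 49.9% were positive, with a median of -0.0021. An r above 0.8 was found for 6 of the 36 pairs (16.7%) and for 3.59% of all pairs. Taken as deviations from the group means, the 36 pairs had a median r of 0.62, with 28 positive.

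The closest pair was Upk3b and Upk1b (r = 0.97, exact permutation p = 0.000397, the smallest the 5040 orders can give, and adjusted p = 0.0143 over 36 pairs; Spearman rho = 0.96, exact p = 0.00278, adjusted p = 0.081). With the 2 libraries farthest from the median of Upk3b left out, WT replicate 2 and cKO replicate 2, r was 0.93. This was the only pair with an adjusted p under 0.05 for r. Krt14 followed both uroplakins (r = 0.90 with each, exact permutation p = 0.00496 with Upk1b and 0.00476 with Upk3b, adjusted p = 0.0589 for both), with rho of 0.93 and 0.86 (exact p = 0.00675 and 0.0238, adjusted p = 0.081 and 0.143). With the 2 farthest libraries left out, r of Krt14 was 0.92 with Upk1b and 0.79 with Upk3b. Gpm6a had r = 0.89 with Upk3b (exact permutation p = 0.00655, adjusted p = 0.0589) and rho = 0.93 (exact p = 0.00675, adjusted p = 0.081), and r was 0.86 without the 2 farthest libraries. The 10 pairs among Upk3b, Upk1b, Gpm6a, Rspo1 and Krt14, a grouping made after the values were seen, had r between 0.58 and 0.97. Without the 2 libraries farthest for the gene named first, r was 0.57 for Upk1b with Gpm6a and 0.56 for Gpm6a with Krt14. It was 0.27 for Gpm6a with Rspo1 and -0.14 for Rspo1 with Krt14. For Upk3b with Rspo1 it was 0.90, and for Upk1b with Rspo1 0.81.

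Lrrn4 and Muc16 were the pair of highest r outside these 5 genes (r = 0.83, exact permutation p = 0.0242, adjusted p = 0.145; rho = 0.86, exact p = 0.0238, adjusted p = 0.143). This value rested on 2 libraries: without WT replicate 2 and cKO replicate 3, the 2 highest for both genes, r was 0.35. Lrrn4 had r between -0.51 and -0.021 with the 5 genes that peaked in cKO replicate 1, and Muc16 between -0.021 and 0.41. Wt1 had positive values with all 8 others, among them r = 0.66 with Upk3b, 0.79 with Krt14, 0.63 with Muc16 and 0.26 with Lrrn4. None of these 4 values of Wt1 had an adjusted exact permutation p under 0.05 (0.247, 0.158, 0.291 and 0.69), and rho was 0.64, 0.68, 0.57 and 0.39 (adjusted exact p = 0.294, 0.294, 0.36 and 0.647). Without cKO replicates 2 and 3, the 2 farthest for Wt1, r was 0.64, 0.72, 0.17 and -0.28. Msln had its highest r with Upk3b (r = 0.73, exact permutation p = 0.0482, adjusted p = 0.174; rho = 0.71, exact p = 0.0881, adjusted p = 0.294), which was 0.48 without WT replicates 2 and 4, and it had the lowest r of all 36 pairs with Lrrn4 (r = -0.60, exact permutation p = 0.161, adjusted p = 0.341; rho = -0.29, exact p = 0.556, adjusted p = 0.741), -0.57 without the same libraries.

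**Figure D4:**
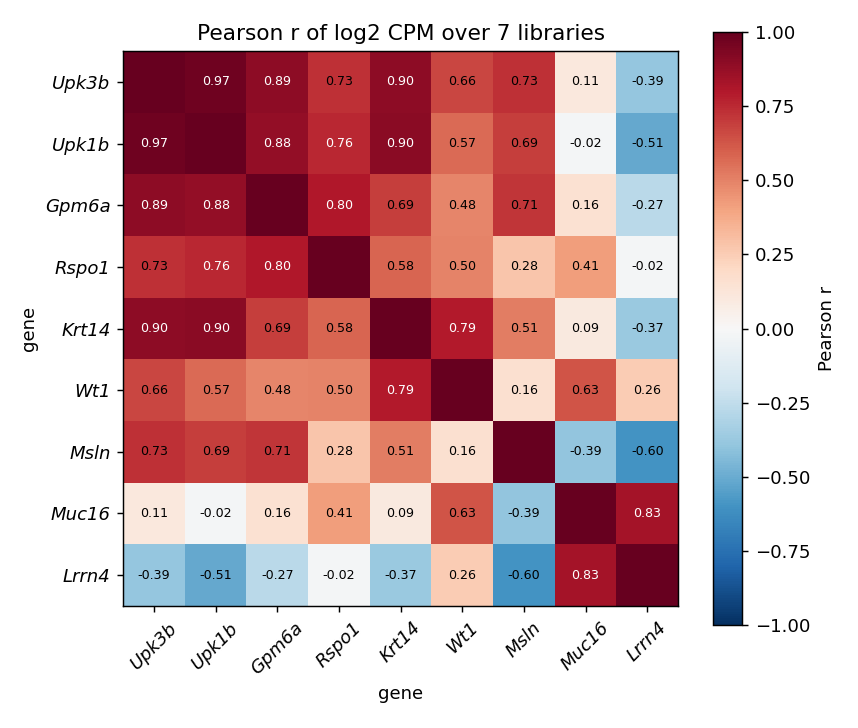
Pearson r of log2 CPM over the 7 libraries for each pair of the 9 genes, with red for positive and blue for negative values. Upk3b, Upk1b, Gpm6a, Rspo1 and Krt14 form a block between 0.58 and 0.97, and Lrrn4 and Muc16 pair with each other at 0.83.

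The 2 libraries with the most uroplakin RNA were also the 2 with the most liver RNA. Upk3b was at 101 CPM in cKO replicate 1 and 84.9 CPM in WT replicate 4, which held 1557 and 913 CPM of liver genes. In the other 5 libraries, with 66.2 to 129 CPM of liver genes, Upk3b ranged from 49.4 to 76.8 CPM. In relations chosen after the values were seen (36, each of the 9 genes with 4 lists), Upk3b had r = 0.74 with the mean z score of the liver genes (exact permutation p = 0.0573, adjusted p = 0.172; rho = 0.68, exact p = 0.11, adjusted p = 0.232). Without cKO replicate 1 and WT replicate 4 that r was -0.069. For Upk1b r was 0.76 (exact permutation p = 0.0514, adjusted p = 0.172; rho = 0.57, exact p = 0.2, adjusted p = 0.327) and -0.22 without them. Rspo1 had the highest r with liver genes, 0.81 (exact permutation p = 0.0163, adjusted p = 0.121; rho = 0.86, exact p = 0.0238, adjusted p = 0.211), and 0.78 without them. None of the 36 relations had an adjusted p under 0.05 for r. The stratified epithelium list gave the highest values: r was 0.91 for Gpm6a (exact permutation p = 0.00397, adjusted p = 0.121; rho = 0.96, exact p = 0.00278, adjusted p = 0.05) and 0.88 for Upk3b (exact permutation p = 0.00675, adjusted p = 0.121; rho = 0.96, exact p = 0.00278, adjusted p = 0.05). Without WT replicate 2 and cKO replicate 1 these were 0.70 and 0.63. With that list Upk1b had r = 0.83 (exact permutation p = 0.019, adjusted p = 0.121; rho = 0.93, exact p = 0.00675, adjusted p = 0.081) and 0.39 without them, and Msln had r = 0.82 (exact permutation p = 0.0236, adjusted p = 0.121; rho = 0.79, exact p = 0.048, adjusted p = 0.211) and 0.42 without them. Wt1 had its highest r, 0.86, with the further mesothelial genes (exact permutation p = 0.0143, adjusted p = 0.121; rho = 0.79, exact p = 0.048, adjusted p = 0.211), and 0.57 without cKO replicates 2 and 3. Krt14 had its highest, 0.82, with neuron genes (exact permutation p = 0.0208, adjusted p = 0.121; rho = 0.75, exact p = 0.0663, adjusted p = 0.211), and 0.67 without WT replicate 2 and cKO replicate 1. Upk1b had r = 0.74 with neuron genes (exact permutation p = 0.0518, adjusted p = 0.172), and 0.43 without the same libraries. Upk3b had r = 0.64 with them (exact permutation p = 0.127, adjusted p = 0.296), and 0.20 without the same libraries. The rho values were 0.75 and 0.68 (adjusted exact permutation p = 0.211 and 0.232). The part of liver tissue, which has a mesothelium of its own, in the levels of the 9 genes was not tested.

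**Figure D5:**
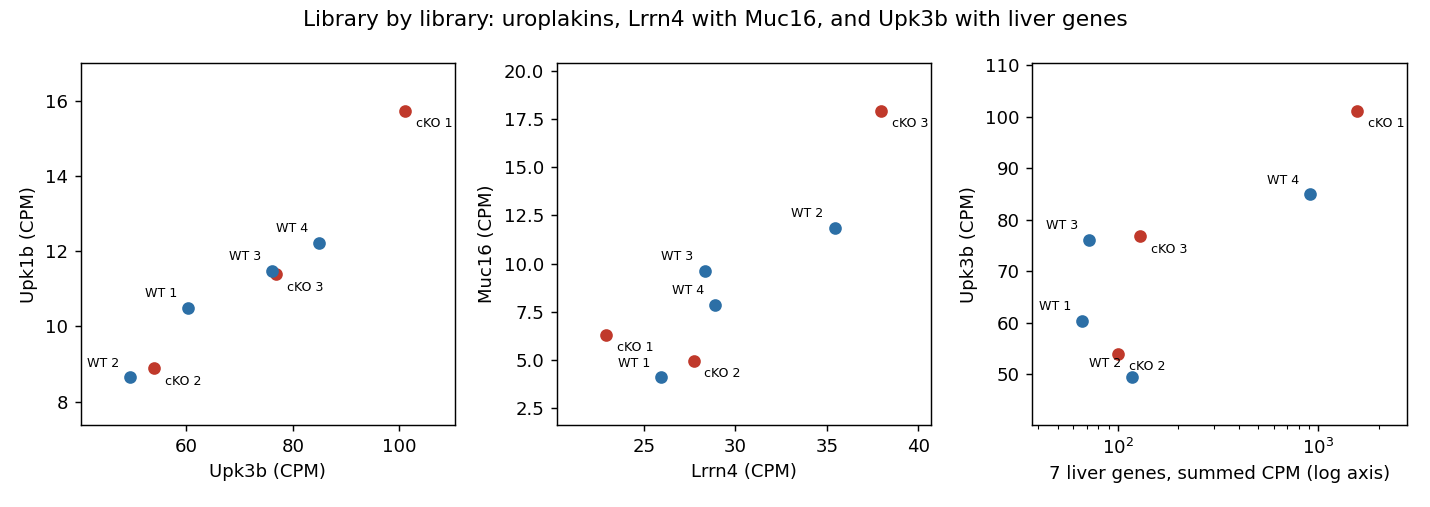
CPM of Upk1b against Upk3b (left), of Muc16 against Lrrn4 (middle) and of Upk3b against the summed CPM of 7 liver genes on a log axis (right), with 1 point per library, cKO in red and WT in blue. The uroplakins fall on a line, cKO replicate 3 and WT replicate 2 lead in Lrrn4 and Muc16, and the 2 libraries rich in liver genes have the most Upk3b.

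Further genes known from mesothelium were compared as a list, of which 10 were in the table and 9 were tested. In cKO 6 of the 9 were higher and 3 lower in the fit, with a median log2 fold change of 0.025, and 0 passed the threshold. Aldh1a2, which makes retinoic acid, had 40.7, 25.4 and 41.7 CPM in cKO replicates 1 to 3, against 31.1, 33.6, 26.0 and 28.6 CPM in WT replicates 1 to 4 (log2 fold change 0.27, SE 0.175). Bnc1, a zinc finger protein of mesothelium and germ cells, had 10.8, 8.29 and 17.7 CPM in cKO and 10.8, 11.2, 14.1 and 13.3 CPM in WT. It was highest in cKO replicate 3 and lowest in cKO replicate 2, as were Wt1, Aldh1a2, Podxl and Nkain4. Alcam, a cell adhesion molecule, averaged 175 ± 12.5 CPM in cKO (SD, n = 3) and 184 ± 16.4 CPM in WT (SD, n = 4). Calb2, calretinin, used as a marker of adult human mesothelium, had 8 counts in all and was not tested.

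Transcription factors linked to the passage of mesothelial cells into mesenchyme showed 2 of 7 higher and 5 lower in the fit (median log2 fold change -0.045), with 0 called. Tcf21, a factor of visceral mesenchyme, averaged 22.02 ± 0.992 CPM in cKO and 22.7 ± 1.201 CPM in WT. Snai2, a repressor of epithelial genes, averaged 17.7 ± 1.60 CPM in cKO and 19.3 ± 1.84 CPM in WT (SD, n = 3 and 4). Tbx18, a marker of epicardium, was low in both groups, at 0.996 ± 0.981 and 0.637 ± 0.208 CPM.

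Of the partners of Rspo1 in Wnt signalling, 5 of 9 were higher and 4 lower in the fit (median log2 fold change 0.0019), with 0 called. Rspo3 averaged 6.93 ± 0.666 CPM in cKO and 6.32 ± 1.24 CPM in WT, and Rspo2 2.33 ± 0.171 and 1.66 ± 0.611 CPM. The receptor Lgr4 averaged 90.7 ± 21.6 CPM in cKO and 92.1 ± 10.4 CPM in WT, and Lgr5 4.83 ± 0.276 and 4.83 ± 1.90 CPM. The ligases Znrf3 and Rnf43, which R-spondins restrain, had log2 fold changes of 0.023 (SE 0.172) and -0.040 (SE 0.157), and the Wnt target Axin2 0.0019 (SE 0.139).

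Lists for tissues that share some of these genes also held 0 called members. In the stratified epithelium list 4 of 6 tested genes were higher in cKO (median log2 fold change 0.15), and its sum was 32.7 to 40.2 CPM in cKO and 32.8 to 50.4 CPM in WT. Its members with the smallest p were Krt10, at 7.73 ± 0.658 CPM in cKO and 6.34 ± 1.62 CPM in WT, and Krt1, at 1.33 ± 0.241 and 0.958 ± 0.462 CPM (SD, n = 3 and 4). Krt15, named after its values were seen, was the 1 tested list gene whose groups did not overlap, at 1.19 ± 0.130 CPM in cKO and 1.01 ± 0.0630 CPM in WT. It had 15 to 24 counts in a library (edgeR, unadjusted p = 0.385). Groups did not overlap for 2.72% of all tested features. In the kidney and gonad list 1 of 6 was higher (median -0.54). There the nephron factors Pax2 and Pax8 had 11 and 2 counts over all libraries, in libraries with 348 to 607 counts of Wt1. Six2 and Lhx9, on the same list, had 171 and 154 counts. The part of kidney or gonad tissue in the counts of Wt1 was not tested. Nephrin, Nphs1, a podocyte gene that pancreas also expresses, was at 56.0 ± 7.32 CPM in cKO and 56.8 ± 3.35 CPM in WT. Of the paralogs of the 9 genes, 3 of 10 tested were higher (median -0.026), with Upk1a and Lrrn3 having the smallest p and Lrrn3 averaging 9.89 ± 4.67 CPM in cKO and 12.5 ± 3.75 CPM in WT. Neuron genes (4 of 10 higher, median -0.16) included Elavl3, an RNA-binding protein of neurons, at 12.8 ± 15.8 CPM in cKO and 16.0 ± 11.4 CPM in WT. Mesenchyme genes (5 of 11 higher, median -0.030) were led by Pdgfrb, a receptor of mesenchymal and mural cells, at 123 ± 17.2 CPM in cKO and 142 ± 7.54 CPM in WT, and Nkx3-2, a homeobox gene, at 7.94 ± 0.885 and 9.01 ± 0.533 CPM. In the pancreatic epithelium (4 of 8 higher, median 0.045) they were Ins2, insulin, at 654 ± 117 and 533 ± 165 CPM, and Ptf1a, an acinar factor, at 64.3 ± 12.4 and 55.8 ± 9.52 CPM. Liver genes (7 of 7 higher, median 0.94) were led by Ahsg, a plasma protein gene, with 77.7, 1.42 and 4.64 CPM in cKO replicates 1 to 3 and 0.865, 2.56, 0.753 and 31.6 CPM in WT replicates 1 to 4. Apoa1, an apolipoprotein gene, had 62.3, 2.43 and 3.54 CPM in cKO and 1.19, 4.35, 1.80 and 31.8 CPM in WT. The spleen genes Nkx2-5 and Tlx1 (0 of 2 higher, median -0.36) were at 0.965 ± 0.138 and 3.99 ± 1.67 CPM in cKO and 1.36 ± 1.02 and 4.72 ± 1.02 CPM in WT.

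Genes most like the 9 were sought by Pearson r between log2 CPM and the mean z score of the 9 over the 7 libraries. The search covered 13662 other tested genes with a mean of at least 1 CPM, leaving out features with a predicted-gene or clone name. The 10 highest were Id1, Itm2a, mt-Rnr2, Wdr44, Vamp3, Ppp1r3b, Tmem117, Rb1, Hacd1 and Vezf1, with r from 0.97 to 0.93. None of them is on the further mesothelial list, of which Cldn15, a claudin, ranked highest (r = 0.83, place 111), ahead of Bnc1 (r = 0.71, place 365). The mean z score of that list had r = 0.81 with that of the 9 genes, the highest of 11 lists (exact permutation p = 0.0123, adjusted p = 0.135). Its rho was 0.86 (exact permutation p = 0.0238, adjusted p = 0.131), and r was 0.69 without cKO replicates 2 and 3. Id1, an inhibitor of helix-loop-helix factors, varied little, at 64.2, 58.3 and 64.7 CPM in cKO replicates 1 to 3 and 60.0, 59.6, 63.8 and 63.2 CPM in WT replicates 1 to 4. The mitochondrial ribosomal RNA mt-Rnr2 varied more, at 204, 127 and 210 CPM in cKO and 121, 139, 169 and 203 CPM in WT. With 7 libraries and so many genes, high values of r arise in number, and the list is a description.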

How the data were processed

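Polyadenylated RNA of whole pancreas was sequenced in 3 cKO and 4 WT libraries. The table the authors deposited holds whole-number counts for each feature and library, with no scaling. The submitters' processing notes list mm39, featureCounts, StringTie and HISAT2 and give no role or setting for any of them. Per the labels' protocols, libraries came from a NEBNext Ultra kit, and no step that marks the strand is described. No annotated exon of the 9 genes overlaps an exon of another gene in GENCODE M21 (GRCm38), which was used for symbols, exon lengths and chromosomes only, since its build differs from mm39. Totals per library were 14883918 to 17767373 counts.

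The test was edgeR 4.0.16 (R 4.3.3), run over all features left by filterByExpr (16910), with TMM factors, robust quasi-likelihood fits and the group as the only term. The threshold was 0.05 on the p adjusted by Benjamini-Hochberg over these features. SEs came from the coefficient and its F statistic. TMM factors also scaled the CPM values, and 2 was the prior count for their log2. Alternatives were DESeq2 1.42.0, limma-voom (limma 3.58.1), other scalings and filters, a replicate block and leaving out libraries. The members and the 12 gene lists were chosen with earlier results of these data known. The text names every member, the 2 genes of smallest p or those with a role beside a member in other lists, and the 10 genes most like the members. Bnc1, Calb2, Cldn15, Podxl, Nkain4, Tcf21, Krt15, Krt17, Trp63, Sfn, Nphs1, Pax2, Pax8, Six2, Lhx9, Nr5a1, Dsg3, Dcn, Krt19, Cdh1, Pdx1 and Cpa1 are outside this rule and were named after their values were seen. A gene that the rule names is not reported here. The counting error given leaves out duplication of fragments in PCR.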

Additional observations from a re-analysis of the deposited data

Results flagged for a closer look

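No member stood apart in any WT library by the gap test used here, which compares the gap between an extreme library and its neighbour with the range of the 4 WT libraries. The summed CPM of 2 marker lists did. For the 7 liver genes the gap was 0.939 of the range, with WT replicate 4 at 913 CPM and the other WT libraries at 66.2 to 118 CPM. For the kidney and gonad genes the gap was 0.863 of the range, with WT replicate 3 at 159 CPM and the others at 64.5 to 77.4 CPM. Chance gives such a gap in about 1 in 20 groups, and 21 were examined (9 genes and 12 sums).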

How the results depend on the processing

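Of 135 values of single members under alternatives, 120 kept their direction and stayed short of the threshold and 15 changed sign, and 0 members were called under any alternative. The number of all features called was 1 and became 0 with DESeq2 size factors, library totals or estimation that is not robust, 4 without a filter, 13 with DESeq2, and 0 to 3 with a replicate left out (3 without WT replicate 1 or 3, 1 without cKO replicate 1 and 0 without any other). With limma-voom the log2 fold change of Krt14 was -0.060. Omitting the pair of libraries rich in liver genes, WT replicate 4 with cKO replicate 1, left 1 feature called, and those of Upk1b, Lrrn4 and Krt14 were -0.0078, 0.14 and -0.46. With 1 replicate left out, the range was -0.52 to 0.56 for Krt14, -0.23 to 0.15 for Lrrn4, -0.56 to 0.54 for Muc16, -0.071 to 0.33 for Upk1b, -0.042 to 0.39 for Upk3b, -0.21 to 0.13 for Wt1, 0.10 to 0.88 for Msln, 0.20 to 0.47 for Gpm6a, 0.010 to 0.44 for Rspo1, and 0.010 to 0.44 for the median of the 9 genes. The causes of these changes were not tested. The median pairwise r was 0.45 to 0.63 over the same omissions, 0.54 with DESeq2 size factors or a prior count of 0.5, 0.53 with library totals and 0.48 without that pair.

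Replicate numbers are shared between the groups, but the labels do not say that they mark a litter or day. Deviations from the group means had r of 0.28, 0.42 and 0.060 between same-numbered libraries. Between libraries of different number r was -0.52 to 0.30. Whether same-numbered libraries share more than a number was not tested. With the replicate number as a block over 6 libraries, 13 features and 0 members were called, the median of the 9 genes was 0.20, Gpm6a was at 0.39 (edgeR, unadjusted p = 0.0258, adjusted p = 0.966) and Msln at 0.96 (edgeR, unadjusted p = 0.0145, the lowest of any member under any alternative, adjusted p = 0.966). Each cKO library correlated best with the WT library of its number in 2 of 3 cases. Counting error was widest for Krt14, at 12.2% against a CV over libraries of 55.1%.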

Other observations

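In WT replicate 3 the genes of steroid-making tissue were high together. Star, which brings cholesterol into mitochondria, was at 41.7 CPM there and at 3.73 to 6.81 CPM in the other 6 libraries, and Nr5a1, the factor of adrenal and gonad cells, at 11.9 CPM and at 0.12 to 1.24 CPM. Wt1, which embryonic gonad also expresses, was at 32.3 CPM in that library and at 33.5 CPM in cKO replicate 3, where Star was at 4.97 CPM and Nr5a1 at 0.17 CPM. In the remaining libraries Wt1 was at 20.6 to 29.5 CPM. The part of gonad tissue in the level of Wt1 was not tested.

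The genes of a list differed in how they ran with the mean z score of the 9 genes over the 7 libraries. Mesenchyme genes ranged from r = -0.73 for Pdgfrb to 0.71 for Dcn, a matrix proteoglycan, and the mean z score of that list had r = 0.41. R-spondin pathway genes ranged from -0.68 for Rnf43 to 0.69 for Rspo3 (list r = -0.34), and pancreatic epithelium genes from -0.62 for Cdh1 to 0.70 for Krt19, a duct keratin (list r = 0.051). These values are a description over 7 libraries.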
